A study of Mus musculus with 2 samples.

Results

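AP-1 is a family of transcription factors that bind DNA as pairs. The open chromatin around 9 of its genes was examined, chosen by symbol: Fos, Fosb, Fosl1, Fosl2, Jun, Junb, Jund, Atf3 and Batf, of 21911 protein-coding genes in all. The data are DNase-seq, which maps where the nuclease DNase I cuts DNA in nuclei, so that promoters and enhancers in use stand out as peaks. The tissue was the adrenal gland of female B6CASTF1/J mice aged 36 days, an F1 hybrid strain that carries 1 chromosome set from C57BL/6J and 1 from CAST/EiJ. There was 1 group of 2 libraries, biological replicates 1 and 2, whose labels name 2 animals under 1 shared donor record and give no treatment. With no second group no test was possible, and each value is given for both libraries, with the mean and SD over them where it helps. A whole gland is a mixture of cells, so that a site fully open in few cells and a site partly open in many cannot be told apart.

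Each Fos-family protein pairs with a Jun-family protein through a leucine zipper, and the pair binds the AP-1 element, a near-palindromic heptamer. Fos, Fosb, Jun, Junb and Atf3 are immediate early genes, switched on within minutes by growth factors, hormones or stress, through the serum response factor at CArG boxes and through CREB or ATF proteins at cAMP response elements (CRE). In the adrenal cortex, the pituitary hormone ACTH acts through cAMP and is a known inducer of several of these genes, while Batf is best known from lymphocytes.

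Of the 5 peaks that hold a match to the CArG box 4 are shown first, because of the 9 elements searched it is the one with the highest ratio of its share in the peaks of these genes to its share in all peaks. The fifth, a Junb peak whose box touched no footprint, is not printed. The sequences are reference sequence of mm10 (C57BL/6J), written 5′ to 3′ on the strand of the gene, and the CAST/EiJ allele was not analysed here. The capitals mark the CArG box, which was searched on both strands in every peak. The 3 printed boxes of Fos and Junb touched footprints, short runs of bases inside a peak that DNase I cuts less, in both libraries, and that of Fosb touched one in replicate 1 alone. The first Fos peak is chr12:85473481-85473700 on the plus strand and the second is chr12:85486021-85486240 on the plus strand. The Fosb peak is chr7:19310281-19310480 on the minus strand and the Junb peak is chr8:84976541-84976740 on the minus strand.
Fos, 299 bp upstream of the start: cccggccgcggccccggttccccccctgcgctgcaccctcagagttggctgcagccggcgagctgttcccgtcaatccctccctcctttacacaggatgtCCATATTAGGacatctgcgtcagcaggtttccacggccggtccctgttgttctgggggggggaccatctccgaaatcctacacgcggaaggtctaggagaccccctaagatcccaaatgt
Fos, 12.2 kb downstream of the start: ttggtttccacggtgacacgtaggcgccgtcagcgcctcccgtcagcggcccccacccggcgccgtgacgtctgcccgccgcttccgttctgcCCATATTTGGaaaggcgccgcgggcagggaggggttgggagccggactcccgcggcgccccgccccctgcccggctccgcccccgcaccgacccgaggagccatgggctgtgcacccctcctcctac
Fosb, 330 bp upstream of the start: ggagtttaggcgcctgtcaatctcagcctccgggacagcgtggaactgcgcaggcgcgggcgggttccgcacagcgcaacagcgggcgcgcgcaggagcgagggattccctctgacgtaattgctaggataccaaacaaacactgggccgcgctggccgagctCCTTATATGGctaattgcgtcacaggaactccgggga
Junb, 2077 bp downstream of the start: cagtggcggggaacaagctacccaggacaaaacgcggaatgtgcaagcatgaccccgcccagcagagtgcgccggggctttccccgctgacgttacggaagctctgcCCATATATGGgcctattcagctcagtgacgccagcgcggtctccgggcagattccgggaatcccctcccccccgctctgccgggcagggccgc

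The next sequences are the stretches just upstream of the start sites of Fos and Jun, and a window around the only full CRE (TGACGTCA) found in a promoter peak of the 9 genes, which lies at Jund. The Fos stretch, chr12:85473761-85473889 on the plus strand, has the CRE core TGACG in capitals, and the Jun stretch, chr4:95052223-95052422 on the minus strand, has the octamer TGACATCA in capitals. Both of these elements were searched after the other matches had been seen. The Jund window is chr8:70698725-70698752 on the plus strand and has the CRE in capitals. It lies in an exon of the RefSeq transcript, which starts 1210 bp upstream of the GENCODE start used here.
Fos, upstream of the start: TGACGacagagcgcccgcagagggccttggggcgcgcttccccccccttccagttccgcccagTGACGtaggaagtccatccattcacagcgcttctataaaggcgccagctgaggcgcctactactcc
Jun, upstream of the start: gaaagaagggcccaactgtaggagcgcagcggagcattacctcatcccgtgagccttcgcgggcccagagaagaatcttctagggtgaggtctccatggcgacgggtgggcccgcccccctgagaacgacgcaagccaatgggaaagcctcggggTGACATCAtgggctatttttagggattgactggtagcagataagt
Jund, 210 bp upstream of the start: cccacccccaTGACGTCAacccacaatg

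AP-1 elements (TGANTCA, both strands) touched a footprint of both libraries, by at least 1 base, at 11 places around 6 of the 9 genes. They are shown because they are the element that the proteins of these genes bind, each with 10 bases on either side and the element in capitals. Distances are from the nearest start of the gene, and for Atf3 all 4 refer to its upstream start. In the order printed, the windows are chr7:19327338-19327364, chr19:5429956-5429982, chr5:32135844-32135870, chr5:32192224-32192250, chr8:70682321-70682347, chr8:70702947-70702973, chr1:191213641-191213667, chr1:191216295-191216321, chr1:191222178-191222204, chr1:191224433-191224459 and chr12:85730073-85730099, on the minus strand for Fosb and Atf3 and on the plus strand for the other genes.
Fosb, 17.3 kb upstream: gatgacgtaaTGAGTCAtcagcgggga
Fosl1, 17.6 kb upstream: gtgccagcgcTGAATCAgcctccagca
Fosl2, 56 bp downstream: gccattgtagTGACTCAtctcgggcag
Fosl2, 56.4 kb downstream: cgtgagcctcTGACTCAtctcgatgtc
Jund, 16.6 kb upstream: caccaggcggTGACTCAcgccctccgt
Jund, 4012 bp downstream: ggagcatctaTGACTCAcactgggtat
Atf3, 4384 bp downstream: tcacagcgtcTGATTCAcccgaattga
Atf3, 1730 bp downstream: gcccagcggcTGACTCAtctgacatta
Atf3, 4152 bp upstream: accacatgggTGACTCActtggtgaca
Atf3, 6408 bp upstream: cccgactgcgTGAGTCAtcagccccgc
Batf, 43.4 kb downstream: tcagacacaaTGACTCAagtcggtggg

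The 9 genes ranged from one of the tallest promoters of the gland to no open promoter at all. A promoter peak is one that reaches within 1 kb of any GENCODE start of the gene, and its height is the authors' signal for that peak, in their own unit, given here for the strongest such peak. Of the 9 genes 8 had a promoter peak in each library, where the share of all protein-coding genes with one was 68.6% in replicate 1 and 69.6% in replicate 2. The median height over the 9 was 13.7 in replicate 1 and 20.9 in replicate 2, against 2.96 and 4.45 over all protein-coding genes. In each library 7 of the 9 lay above the median of all genes, which 50% of genes do, and Fosl1 and Batf lay below it.

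**Figure D1:**
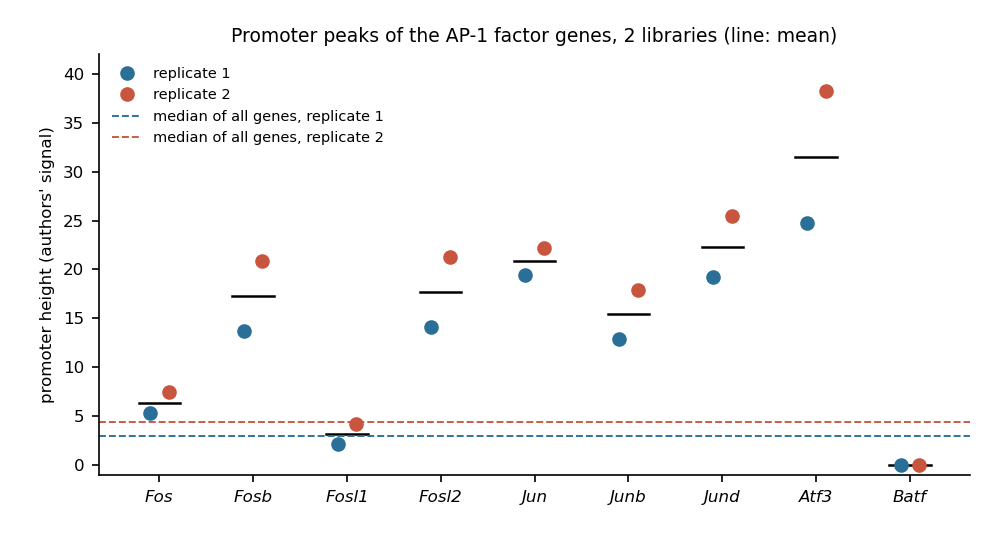
Height of the strongest promoter peak of each gene (vertical axis, authors' signal) in replicate 1 (blue) and replicate 2 (red), with the mean as a black line and the median of all protein-coding genes as dashed lines. Atf3 was the tallest in both libraries at 24.7 and 38.2, Fosl1 lay just under the dashed lines and Batf was at 0.

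Among the Jun genes, whose proteins can pair with themselves as well as with Fos proteins, all 3 promoters were strongly open. Jund, the most constantly expressed Jun gene in most tissues, had heights of 19.2 and 25.4 (22.3 ± 4.38, mean ± SD, n = 2) in a peak 108 bp upstream of its start. Jun, the founding member and a classic target of its own product, had 19.4 and 22.2 (20.8 ± 1.98, n = 2). Junb, which often opposes Jun at growth genes, had 12.9 and 17.9 (15.4 ± 3.54, n = 2). In replicate 1 these peaks lay at chr8:70698701-70698980 for Jund, chr4:95052141-95052620 for Jun and chr8:84978741-84978940 for Junb. Replicate 2 was the higher of the libraries for each of them, as it was for every gene here with a promoter peak. Of all peaks of replicate 1 overlapped by one of replicate 2, 95610 of 126336 were higher in replicate 2.

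The Fos genes, whose proteins need a Jun partner, were less alike. Fosl2, which encodes Fra-2, had heights of 14.2 and 21.3 (17.7 ± 5.06, n = 2). Fosb had 13.7 and 20.9 (17.3 ± 5.09, n = 2), but that peak lies in its intron, 889 bp downstream of the nearest start. The peak 330 bp upstream of Fosb, printed above, had 10.1 and 14.0, and with the RefSeq start or a window of 500 bp it is the strongest. Fos itself had 5.36 and 7.46 (6.41 ± 1.48, n = 2), in a peak over its start. Fosl1, which encodes Fra-1 and is induced late after stimulation, had 2.21 and 4.24 (3.22 ± 1.44, n = 2). In replicate 1 the strongest peaks lay at chr5:32135561-32135960 for Fosl2, chr7:19308601-19308820 for Fosb, chr12:85473761-85473980 for Fos and chr19:5447541-5447960 for Fosl1, the last with its centre in the UTR. The promoter of Fosl2 stood above that of Junb in both libraries, and those of Fos and Fosl1 below it. Fosb stood above Junb by its intronic peak and below it by its upstream peak.

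Atf3, a stress-induced factor that pairs with Jun proteins and represses many targets, had the tallest promoter of the 9, with 24.7 and 38.2 (31.5 ± 9.53, n = 2). Its height lay at percentiles 99.6 and 99.8 of all protein-coding genes in replicates 1 and 2. Atf3 has 2 annotated starts 34.7 kb apart, and all its promoter peaks, 4 in each library, lay at the downstream start. No peak reached within 1 kb of the upstream start in either library. Batf, the remaining gene, had neither a promoter peak nor a hypersensitive base (one listed at a false discovery rate of at most 0.05) within 1 kb of its start, in both libraries. All the 32-base words around its start (100%) occur once in the mm10 reference. Whether reads of these libraries, from either allele, could be placed there was not tested. The start of Batf is at position 85686669 of chromosome 12. Its nearest peak lay 18912 bp away in replicate 1 and 1789 bp away in replicate 2, where it had a height of 0.503.

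Ranked by mean height the order was Atf3, Jund, Jun, Fosl2, Fosb, Junb, Fos, Fosl1 and Batf. Within each library the order was the same, except that Jun stood above Jund in replicate 1 and below it in replicate 2. From Atf3 down to Junb each gene's 2 values, as deposited, overlapped those of its neighbour in this order. The values of Fos lay below those of Junb, those of Fosl1 below those of Fos, and Batf below Fosl1, with no overlap. This holds for the strongest peak of each gene. By the sum of all promoter peaks Fos had 11.9 and 16.6, which overlap the 13.9 and 19.7 of Junb. Divided by the general ratio of the libraries at shared peaks, replicate 2 gave heights of 29.3 for Atf3, 19.5 for Jund, 17.1 for Jun, 16.3 for Fosl2 and 5.72 for Fos. On that scale Atf3 no longer overlapped Jund, nor Jun Fosl2, while Jund and Jun, Fosl2 and Fosb, and Fosb and Junb still overlapped. The general ratio is the median over shared peaks of all heights, with a log2 of 0.38. For shared peaks of height 5 or more, as the peaks from Atf3 to Junb are, the median log2 was 0.58. The overlaps were not recomputed with that larger ratio, so those that remained are stated for the general ratio alone.

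The shape of the open region also differed between these promoters. Around Jun the run of hypersensitive bases was 4217 bp long in replicate 1 and 4240 bp in replicate 2, from upstream of its start into its 3′ UTR. The run at Jund was 1959 and 1981 bp long, and that over the start of Fosl1 616 and 721 bp. Within 1 kb of the start, Jun had 2001 hypersensitive bases in both libraries, which is the whole window, and Fos had 1231 and 1452. Over all protein-coding genes the medians were 644 and 718.

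The start of Atf3 was called differently in the libraries. Replicate 2 had a peak of height 21.4 at chr1:191183181-191183400, over the downstream start, in addition to the tallest peak at chr1:191183441-191183660. Replicate 1 had no peak there, yet all 220 of its bases were listed as hypersensitive, with a false discovery rate of at most 2.61e-51. The missing peak of replicate 1 is therefore a difference in the peak list and not in the table of false discovery rates. At Jun replicate 2 listed 2 overlapping peaks over the start. At Fosl1 replicate 1 listed 2 overlapping peaks, of which 1 covers the start.

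**Figure D2:**
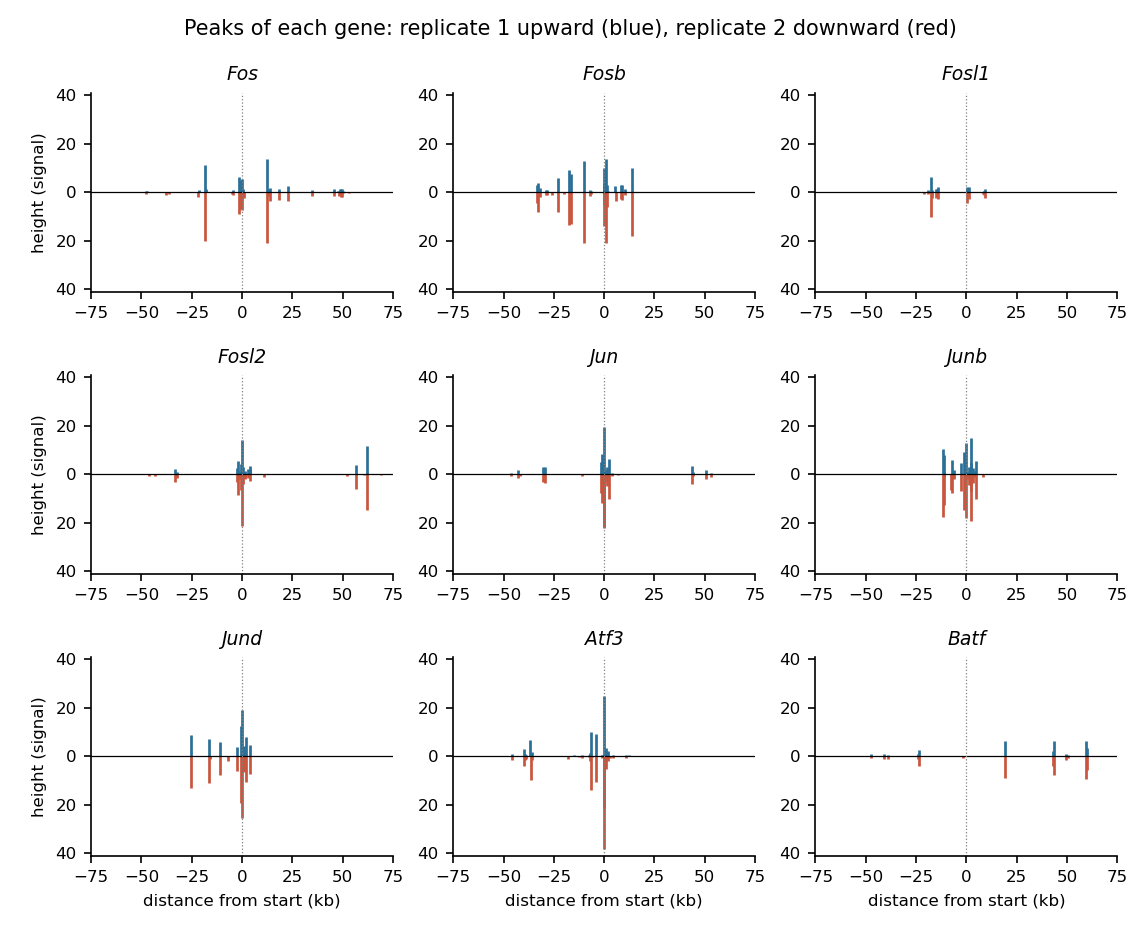
Peaks of each of the 9 genes by distance from the nearest start of the gene (horizontal axis, kb, positive downstream) and height (vertical axis, authors' signal), with replicate 1 upward in blue and replicate 2 downward in red. Fos has taller peaks on both sides of its start than at it, Junb has a cluster of tall peaks, and Batf has none at its start.

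Beyond the promoter, the distal peaks of a gene are those in its body and flanks of up to 50 kb, cut at the next start of another protein-coding gene. The median number over the 9 genes was 12 in replicate 1 and 15 in replicate 2, against 5 and 6 over all protein-coding genes. Fos had the most, 21 in both libraries. Fosb had 18 and 19, and Atf3 16 and 19. Jund had the fewest, 7 and 9, in a domain of 30.02 kb, while the domain of Fos spans 103 kb. Per 10 kb, Junb was the densest, with 6.38 and 7.37 distal peaks, at percentile 99.92 of all genes in both libraries. Its domain is the shortest of the 9, at 20.4 kb, and 34.0% and 34.9% of it was hypersensitive. Fosl2 had the lowest density in replicate 1, at 0.901, and Batf in replicate 2, at 1.18, where the medians of all genes were 0.725 and 0.752.

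**Figure D3:**
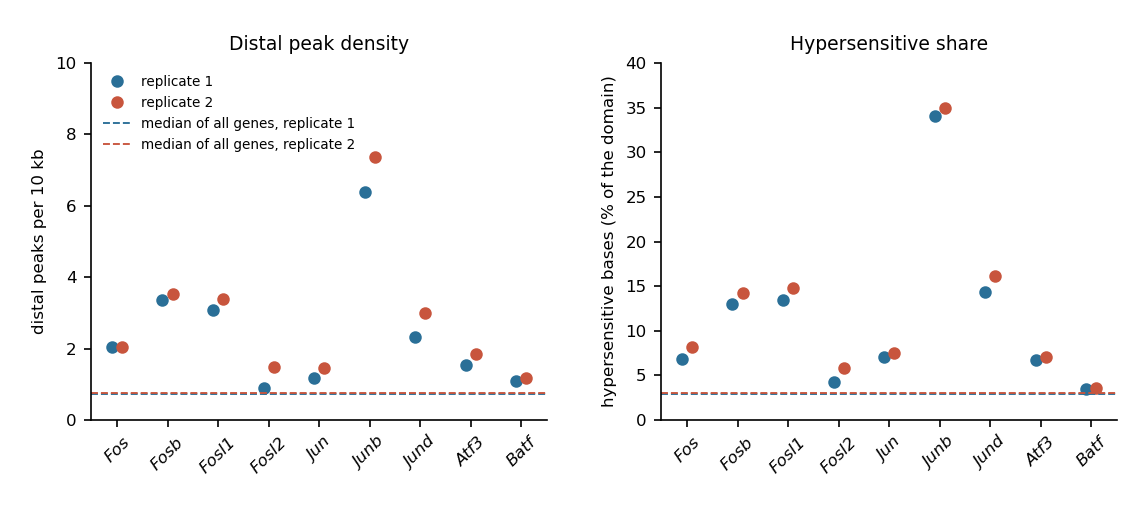
Distal peaks per 10 kb (left) and hypersensitive bases as a percentage of the domain (right) for each gene in replicate 1 (blue) and replicate 2 (red), with the medians of all protein-coding genes as dashed lines. Junb stands highest in both panels, and the 18 values in each panel lie above the dashed line of their library.

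At Fos the tallest peaks were not at the start. The peak 12.2 kb downstream, between genes and printed above, had heights of 13.9 in replicate 1 and 20.8 in replicate 2, which is 2.59 and 2.80 times the promoter. A peak 18.5 kb upstream, 80 bp wide in replicate 1 and 360 bp in replicate 2, had 11.2 and 20.03, and another, 1639 bp upstream, had 6.47 and 9.13. All 3 exceeded the promoter peak in both libraries. The promoter itself was split into peaks 299 bp and 19 bp upstream of the start, with heights of 5.05 and 5.36 in replicate 1.

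In Junb and Fosl1, too, the tallest distal peak exceeded the promoter in both libraries. At Junb it lay 2077 bp downstream of the start, past the end of the gene, and had heights of 14.9 and 19.1, or 1.16 and 1.07 times the promoter. A Junb peak 1353 bp upstream had 9.28 and 14.9. The peak 11.8 kb upstream, with 10.6 and 17.8, lies 82 bp from the start of Hook2, which is within the promoter window of that gene. At Fosl1 the tallest peak lay 17.6 kb upstream, with 6.28 and 10.3, and holds an AP-1 element printed above. Within flanks of 10 kb the tallest distal peak of Fosl1 had 2.16 and 2.62, below its promoter in both libraries.

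The distal peaks of Fosl2, Jun, Jund and Atf3 were lower than their promoters in both libraries. Fosb had a peak of 120 bp 10.2 kb upstream, in an exon of the long non-coding RNA gene D830036C21Rik, with 13.02 and 20.8, or 0.950 and 0.996 times its intronic promoter peak and above its upstream peak of 10.1 and 14.0. Fosl2 had its tallest 62.1 kb downstream, with 11.7 and 14.7. For Jun it lay in its own 3′ UTR, with 6.29 and 10.3. For Jund it lay in an intron of Lsm4, 259 bp from the start of that gene, with 8.73 and 13.3. Atf3 had peaks 4.17 kb and 6.39 kb upstream of its upstream start, with 9.33 and 10.8 for the nearer and 9.83 and 13.8 for the farther, which is 23 bp from the start of the non-coding gene D730003I15Rik. The upstream start of Atf3 thus had open sites near it and none at it.

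Batf, with no open promoter, had 12 distal peaks in replicate 1 and 13 in replicate 2, and 3 of them reached a height above 6 in both libraries. The first lies in its own intron, 19.01 kb downstream of its start, with 6.46 and 8.86. The second lies between genes, 43.4 kb downstream, with 6.43 and 7.88, and holds an AP-1 element. The third, with 6.48 and 9.19, is 608 bp from the start of Flvcr2, the next gene. Batf shares chromosome 12 with Fos, 213 kb away, and between them lies Jdp2, whose product is a repressor that pairs with Jun proteins. Jdp2 had promoter heights of 9.70 and 14.6, above both of its neighbours among the 9.

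CArG boxes were found in 5 of the 144 peaks of these genes in replicate 1 (3.47%) and in 4 of 164 in replicate 2 (2.44%). Of all peaks 0.772% and 0.668% held one. Among peaks of height 5 or more, a limit chosen after seeing the data, the counts were 5 of 40 (12.5%) against 0.932% of all such peaks in replicate 1, and 4 of 55 (7.27%) against 0.785% in replicate 2. Of the 5 boxes, 3 touched footprints in both libraries, where 13.4% of all CArG matches in peaks of replicate 1 did. All 5 lie in peaks of height 5 or more, and of all matches in such peaks 46.5% did. In replicate 2 the count was 3 of 4, against 14.4% of all matches and 42.7% of those in such peaks. The box of Fos 304 bp upstream of its start, the place of the classic serum response element, overlapped footprints by 8 of its bases in replicate 1 and by 6 in replicate 2. The boxes at 12.2 kb from Fos and at 2089 bp from Junb lay wholly in footprints, with 10 bases in each library. The Fosb box overlapped by 10 bases in replicate 1 and by 0 in replicate 2, and a second box of Junb, in the peak 1353 bp upstream, by 0 in both. Both printed peaks of Fos are rich in G and C, at 62.3% and 74.1% of bases.

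CRE-like elements were examined next. A full CRE was found in 1 of 144 peaks in replicate 1 (0.694%) and in 2 of 164 in replicate 2, where 0.709% and 0.696% of all peaks held one. The full CRE of Jund, 210 bp upstream, lay wholly in footprints, with all 8 bases in both libraries. Of all CRE matches in promoter peaks, 87% touched footprints of both libraries in peaks of replicate 1 and 85.4% in those of replicate 2. The CRE core of Fos 64 bp upstream had all 5 of its bases in footprints of both libraries. The other one in that stretch, at the edge of the same peak, overlapped by 3 bases in replicate 1 and by 0 in replicate 2. The octamer TGACATCA of Jun, 42 bp upstream, a variant bound by Jun and ATF2 in many cell types, had all 8 bases in footprints of both libraries. The CRE core was found in 13 of 24 promoter peaks of these genes in replicate 1 (54.2%) and in 16 of 24 in replicate 2 (66.7%), where 21.5% and 20.8% of all promoter peaks held one. This element was searched after the others had been seen. The promoter peaks of these genes were also taller, with median heights of 3.80 and 7.17 against 2.06 and 2.77. No share of the CRE core matched for height or width was computed. Each full CRE holds the CRE core on both strands.

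AP-1 elements were about as frequent as in peaks at large over all heights. They were found in 24 of 144 peaks in replicate 1 (16.7%) and in 27 of 164 in replicate 2 (16.5%), where 17.8% and 14.9% of all peaks held one. Among peaks of height 5 or more the counts were 9 of 40 (22.5%) against 8.3% in replicate 1, and 12 of 55 (21.8%) against 9.47% in replicate 2. The mix of promoter and distal peaks was not matched in that comparison. Of the distal peaks of these genes 17.5% and 18.6% held one, against 20.6% and 17.2% of all peaks outside promoters. Of their promoter peaks 12.5% and 4.17% did, against 5.67% and 5.02% of all promoter peaks. Those of replicate 1 include 2 overlapping peaks of Fosl1 that hold the same element. That element counts for each peak among the matches of replicate 1. Of the 30 matches in replicate 1, 11 touched footprints in both libraries (36.7%), where 17.1% of all matches did. In replicate 2 the count was 11 of 31 (35.5%), against 19.6%. In peaks of height 5 or more it was 7 of 10 against 52.5% in replicate 1, and 9 of 12 against 48.8% in replicate 2. Atf3 held 4 of these 11, Fosl2 and Jund 2 each, and Fosb, Fosl1 and Batf 1 each. Fos, Jun and Junb held none. The Fosl2 element 56 bp downstream of its GENCODE start, in the 5′ UTR from that start, had all 7 bases in footprints of both libraries. At some of the other sites the overlap in a library was 1 base. In the promoter windows of RefSeq for mm10, none of the 8 genes found there held an AP-1 element, a full CRE or a CArG box, where 7.81%, 1.79% and 1.63% of 32851 windows did. Those windows did not contain the upstream CArG boxes of Fos and Fosb printed above, although both starts lie within 1 bp of those used here. The RefSeq start of Fosl2 lies 671 bp downstream of the one used here, so that the Fosl2 element at 56 bp lies upstream of it. The RefSeq start of Jund lies 1210 bp upstream of the one used here. Absence from these windows therefore does not bear on the matches in peaks.

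The consensus of SF-1 (CAAGGTCA), the nuclear receptor that governs the steroid-producing program of the cortex, touched footprints of both libraries 1744 bp upstream of Jun, by 7 and 8 of its bases, and 2305 bp upstream of Jund, by 4 and 8. Of all matches in peaks 22% did so in replicate 1 and 22.7% in replicate 2. It was found in 6 of 144 peaks in replicate 1 (4.17%) and in 5 of 164 in replicate 2 (3.05%), where 4.44% and 4.03% of all peaks held it. GC boxes (GGGCGG), bound by Sp1-like factors, were found in 14 of the 24 promoter peaks in replicate 1 (58.3%) and 16 of 24 in replicate 2 (66.7%), where 49.6% and 48.9% of all promoter peaks held one.

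At least 1 footprint was held by 16 of 24 promoter and 105 of 120 distal peaks in replicate 1, where 73.8% of all peaks held one, and by 17 of 24 and 118 of 140 in replicate 2, against 72%. Footprints wholly inside the promoter peaks of the 9 genes numbered 65 in replicate 1 and 67 in replicate 2. In replicate 1 the strongest peak of Jun held 9 footprints that covered 221 of its 480 bp, and 8 of them were overlapped by a footprint of replicate 2. That of Fosl2 held 7, of which 6 were overlapped, that of Jund 5, all of them overlapped, and that of Atf3 4, all overlapped. Fosl1 had 3, of which 1 was overlapped. The strongest promoter peaks of the 8 genes held 5.38 footprints on average in replicate 1 and 4.75 in replicate 2, against 3.63 and 3.51 over all genes. The median height of these peaks was also higher, 13.9 and 21.1 against 6.56 and 9.64, and its part in the counts of footprints was not tested.

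Most peaks of these genes were found in both libraries. Of the 144 peaks of replicate 1, 134 were overlapped by a peak of replicate 2 (93.1%), where 80.2% of all peaks were. Among peaks of height 5 or more all 40 of these genes were overlapped, and 99.9% of all such peaks. The median log2 ratio of replicate 2 over replicate 1 at shared peaks was 0.48 for these genes and 0.38 for all. All 40 peaks of height 5 or more were higher in replicate 2, as were 13138 of the 13286 shared peaks of that height over all features. The median log2 ratio was 0.54 for the 40, against 0.58 for all such peaks. At the promoters the ratio was lowest for Jun, at 0.19, and highest for Fosl1, at 0.94. The 10 peaks of replicate 1 without a partner reached at most 2.21. Of the 164 peaks of replicate 2, 134 had a partner, where 76.2% of all its peaks had one. Of the other 30 the tallest were the Atf3 peak of 21.4 and one of 6.56 that lies 7.48 kb upstream of Junb.

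**Figure D4:**
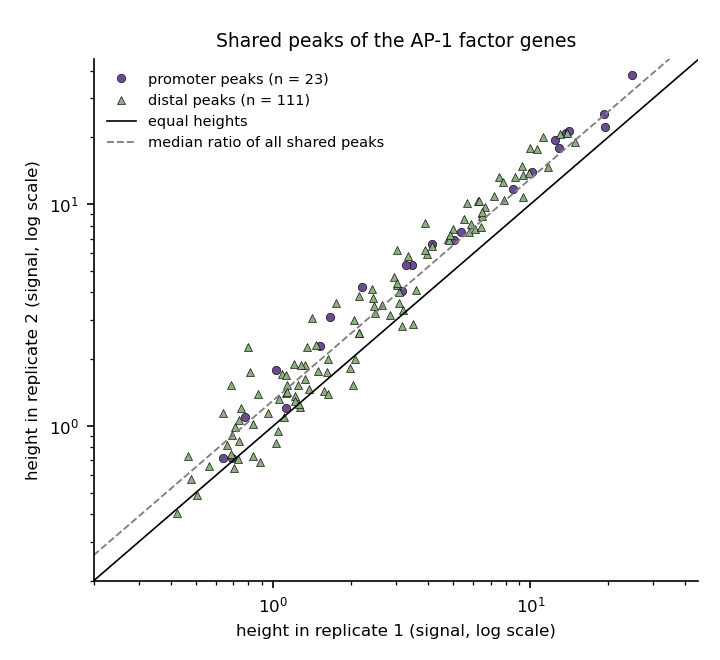
Height of each peak of the 9 genes in replicate 1 (horizontal axis) and of its partner in replicate 2 (vertical axis), both as the authors' signal on log scales, for 23 promoter peaks (circles) and 111 distal peaks (triangles). Most points lie above the line of equal heights, near the dashed line that marks the median ratio of all shared peaks.

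Promoters of genes that act with, on or under AP-1 were described in the same way. All 21 other genes of the bZIP class, to which the AP-1 proteins belong, had a promoter peak in both libraries, with median heights of 12.9 and 18.3. Ddit3, a stress-induced factor, was the tallest of them at 24.2 and 38.2, close to Atf3, and Batf2, a relative of Batf, the lowest at 1.01 and 1.47. All 22 genes for kinases and factors upstream of AP-1 had one too, with medians of 12.5 and 20.04, the tallest being Map2k1, a kinase of the ERK pathway, at 24.5 and 41.3. Srf, whose product binds CArG boxes, had 12.99 and 20.8. The lowest were Mapk10 and Elk3, both at 2.01 in replicate 1. Of 13 genes known as AP-1 targets 10 had a promoter peak in both libraries (76.9%), near the 68.6% and 69.6% of all protein-coding genes, with medians over the 13 of 3.59 and 5.03. The 3 matrix metalloproteinase genes Mmp3, Mmp9 and Mmp13 had none, and Dusp1, a phosphatase that shuts off MAP kinases, was the tallest at 13.2 and 20.4.

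Marker genes were set beside the labelled tissue. All 5 cortex markers and all 4 medulla markers had a promoter peak in both libraries, where 68.6% and 69.6% of all protein-coding genes had one. Median heights were 6.15 and 9.07 for the cortex and 1.58 and 3.77 for the medulla, against 2.96 and 4.45 over all protein-coding genes. Of the cortex markers 4 lay above the median of all genes in each library. Of the medulla markers 1 did in replicate 1 and 2 did in replicate 2. Markers of kidney and liver, 2 each, had no promoter peak. A peak was found at 1 of 4 macrophage markers in replicate 1 and at 2 in replicate 2, at heights of up to 2.35. Csf1r and Ptprc were at 0 in both, as was Cd3e, a marker of T cells. Of 4 endothelial markers 3 and 4 had a peak, up to 6.62 at Flt1, and of 2 adipocyte markers Lipe did and Adipoq did not. The part of these cell types in the peaks of the 9 genes was not tested.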

How the data were processed

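DNase-seq of 2 adrenal gland libraries was analysed from the peak lists, tables of false discovery rates and footprint lists that the authors deposited on mm10, each made from 1 library. The deposited peak heights are a signal scaled by the authors, and the steps between them are whole multiples of 0.00934 in replicate 1 and 0.00883 in replicate 2. Neither the number of reads nor the peak caller is given in the sources used here, so that no counting interval was computed. The authors' false discovery rates (q-values) are listed only under 0.05, and their footprint p-value column is the constant 0.01.

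Of the 2 peak lists of a library the longer was used, with 157595 and 166206 peaks. Starts came from GENCODE basic M21 on GRCm38.p6, and peaks were called shared at an overlap of 1 bp. Elements were exact matches on both strands. Scripts used Python 3.11.15, numpy 2.4.6 and pandas 2.3.3 and were tested on simulated data. The genes, lists and elements were chosen with earlier results of these data known. All 9 genes were named by rule, and of the other lists the highest, the lowest, those without a peak, and Jdp2, with Srf named after its value was seen. RefSeq windows matched 8 of the 9 genes by symbol. Alternatives covered windows, flanks, start sets, peak lists, thresholds and leaving out a library.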

Additional observations from a re-analysis of the deposited data

Results flagged for a closer look

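Footprints were also listed outside the called peaks, in data that the comparisons above do not use. In the domains of the 9 genes 59 of 396 footprints in replicate 1 (14.9%) and 77 of 444 in replicate 2 (17.3%) touched no called peak of that library. Of all footprints, 8.19% of 297594 and 9.3% of 298189 touched none. The reason for the higher share in these domains was not tested.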

How the results depend on the processing

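No paired analysis was possible because the 2 libraries form 1 group and no test was made. The sum of all promoter peaks in place of the strongest gave a median height of 26.7, against 17.3 for the mean over both libraries. The median number of distal peaks, 13.5, became 4.5 with flanks of up to 10 kb, 18.5 with up to 200 kb, 21 with flanks not cut, 10.5 with the shorter peak list, 10 with peaks above the median height alone and 10.5 without peaks near another gene's start. The median hypersensitive share, 7.64%, became 6.73% and 6.16% at false discovery rates of 0.01 and 0.001, and 13.5% with flanks of up to 10 kb. Leaving out a library gave 8 to 8 genes with a promoter peak, median heights of 13.7 to 20.9, 12 to 15 distal peaks, shares of 7.08% to 8.20%, 65 to 67 footprints and 24 to 27 peaks with an AP-1 element. Of all alternative values 31 for the whole set and 129 for single genes moved by no more than the spread between the libraries or, for counts, by less than 1.5 times. Another 10 for the whole set and 14 for single genes moved by more, and no value changed sign. The totals of 31 and 129 include the settings that left out a library. With 2 libraries such a value cannot move from the mean by more than that spread, so those settings do not test it. A window of 2 kb gave Batf a height of 0.252, from a peak of replicate 2, and the tallest distal peak of Fosl1, 8.29, became 2.39 with flanks of up to 10 kb, below its promoter mean of 3.22, and 15.2 with flanks not cut. A window of 500 bp or the RefSeq start gave Fosb a promoter height of 12.1 in place of 17.3, below that of Junb and below its own tallest distal peak. The causes of these shifts were not tested, beyond what each setting adds or leaves out. Heights from 2 libraries limit the precision, and no depth was given to bound a peak that is absent.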
